A study of Mus musculus with 60 samples.

Results

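Stool collected at day 28 from mice given polyethylene terephthalate (PET) nanoplastic was compared with day 28 stool of unexposed mice, below the level of genus and down to single sequence features. The libraries were chosen by their labels for sample type, day and exposure, which gave 6 PET and 6 control libraries out of 60 in the series. PET is the polyester of bottles and textiles, and PET mice received it by oral gavage at 0.5 mg a day in 0.1 ml, daily for 28 days. Control mice are labelled only as not exposed. The labels do not say whether they were gavaged with a vehicle, and give no strain, age or housing of the mice. All 12 mice of the study were male. No label ties a library to a cage, so shared housing within an arm was not tested. Nothing beyond the labels says that libraries of 1 arm came from separate animals, and the p-values measure the spread between these libraries.

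The assay read variable regions V3 and V4 of the 16S rRNA gene, which differ between bacterial taxa. A feature is 1 sequence entry of that amplicon, and strains or species that share it cannot be told apart. Whether an entry is an exact sequence or a cluster of similar ones is not given in the sources used here. Of 7922 prokaryote features of the series, 2018 had at least 1 count in these 12 libraries. Library totals ran from 245032 to 602305 counts, and prokaryote features held 99.96% to 99.99% of them. Features are numbered within a genus label by their mean share over the 12 libraries, so that feature 1 of a genus is its most abundant. A share is a percentage of the prokaryote counts of a library. Shares sum to the same total in every library, so a rise of one taxon and a fall of the others cannot be told apart.

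The mouse colon is dominated by anaerobes of the phyla Firmicutes and Bacteroidota. Lachnospiraceae and Oscillospiraceae are clostridial families that ferment plant fibre and include many makers of butyrate, a short-chain fatty acid used by colon cells as fuel. Muribaculaceae and Bacteroidaceae break down complex sugars to acetate and propionate, Lactobacillaceae make lactic acid, and Helicobacter species of rodents live in the mucus layer of the gut.

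The libraries carried a mouse gut community in both arms. Lachnospiraceae held 20.6% to 33.99% of counts in PET libraries and 20.7% to 31.8% in control libraries, and Muribaculaceae held 8.13% to 20.8% in PET and 7.57% to 15.5% in control libraries. The listed genera of the mouth and airway summed to 0.0398% ± 0.0196 in PET and 0.0459% ± 0.0298 in control libraries (SD, n = 6 each), with 5 of 8 genera detected and Neisseria, Fusobacterium and Gemella at 0 in all 12 libraries. One library stood apart from the other 11. Control library 1 held 882 features against 481 to 632 in the others, and 361 of its features, which made up 12.2% of its counts, occurred in no other day 28 stool library. Genera that are common reagent contaminants summed to 0.00609% ± 0.00632 in PET libraries and to 0.203% ± 0.475 in control libraries. Control library 1 alone held 1.17% of them, and the control mean without it was 0.00884%. Many of the results that rest on this library are given with and without it.

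At the level of the whole community the test did not separate the arms. Exposure accounted for an R2 of 0.0712 of the squared Bray-Curtis distances between feature shares (exact permutation test of distances over all splits, p = 0.814). The mean Bray-Curtis distance, which runs from 0 for the same composition to 1 for nothing shared, was 0.562 among PET libraries, 0.562 among control libraries and 0.551 between the arms. Libraries of one arm were therefore as far from each other as from the other arm. On presence and absence alone, at one depth of 245010 counts, the Jaccard R2 was 0.0931 (exact p = 0.329). The share of counts in features found in all 12 libraries was 48.6% in PET and 44.96% in control libraries on average.

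No family differed between the arms after correction. The quasi-likelihood F test of edgeR with Benjamini-Hochberg adjustment called 0 of 54 families, with a lowest adjusted p of 0.42, and 5 families (9.26%) had an unadjusted p under 0.05, 2 higher (3.7%) and 3 lower (5.56%) in PET. Lactobacillaceae, all of it the genus Lactobacillus, held 4.66%, 10.1%, 5.97%, 5.14%, 9.39% and 3.49% in the PET libraries and 3.68%, 7.31%, 6.71%, 3.80%, 4.03% and 3.71% in the control libraries. The highest 2 values were both in PET libraries and the ranges overlapped. The fitted log2 fold change of PET over control was 0.68 ± 0.31 (SE, adjusted p = 0.42). It was 0.37 without control library 1 (unadjusted p = 0.243) and 0.41 with counts scaled by library totals in place of the TMM factors (unadjusted p = 0.210). That other scaling moved the median log2 fold change of all families by -0.31, so small family changes are read from their shares. Bacteroidaceae averaged 11.6% ± 2.83 in PET and 9.23% ± 4.08 in control libraries (adjusted p = 0.42). Prevotellaceae averaged 4.56% ± 2.40 in PET and 6.21% ± 2.06 in control libraries (adjusted p = 0.945). Rikenellaceae, to which Alistipes belongs, averaged 8.48% ± 1.95 in PET and 7.51% ± 2.06 in control libraries (adjusted p = 0.42). Oscillospiraceae averaged 4.43% ± 1.27 in PET and 3.67% ± 1.45 in control libraries (adjusted p = 0.42). Marinifilaceae, here the genus Odoribacter, averaged 4.98% ± 2.42 in PET and 5.76% ± 3.17 in control libraries (adjusted p = 0.983). Helicobacteraceae averaged 4.47% ± 1.67 in PET and 5.40% ± 1.80 in control libraries (adjusted p = 0.983). Ruminococcaceae averaged 0.991% ± 0.424 in PET and 1.24% ± 0.77 in control libraries (adjusted p = 0.983). Tannerellaceae, here Parabacteroides, averaged 2.21% ± 1.73 in PET and 2.12% ± 2.17 in control libraries (adjusted p = 0.94). Control library 1 held 5.43% of it, and the control mean without that library was 1.46%. The uncultured clostridial groups vadinBB60 and UCG-014 averaged 5.99% ± 2.32 and 1.95% ± 1.90 in PET libraries, against 7.28% ± 2.87 and 2.58% ± 1.54 in control libraries (adjusted p = 0.988 and 0.983).

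**Figure D1:**
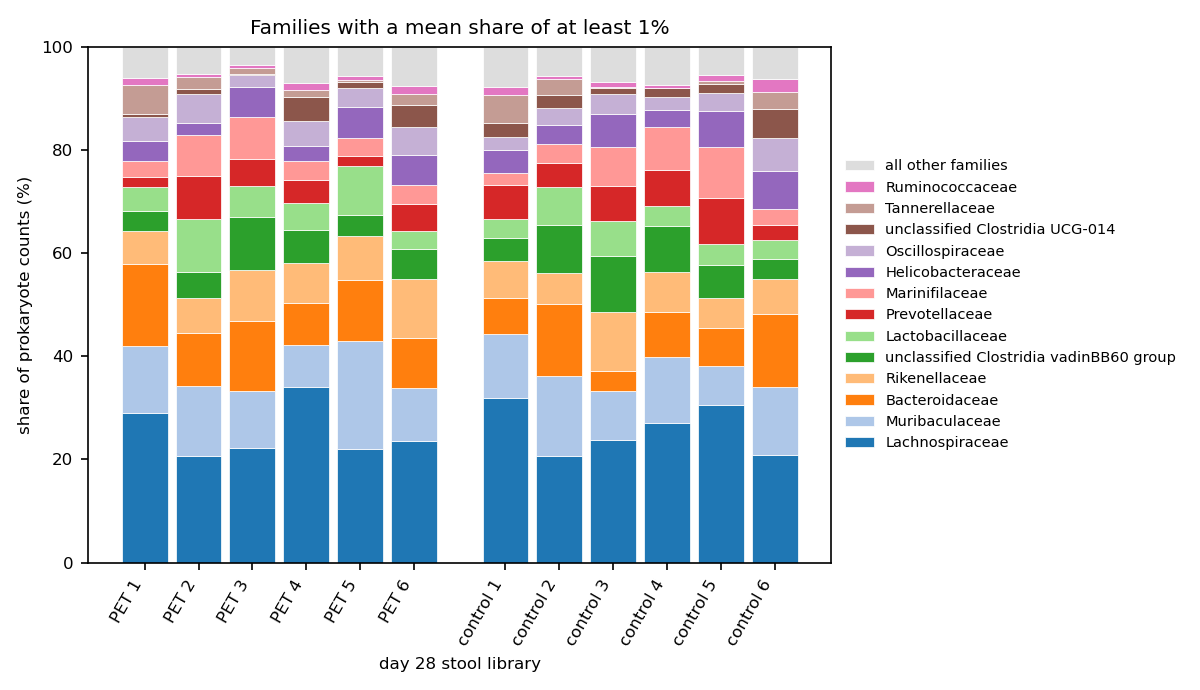
Shares of the 13 families with a mean share of at least 1% (y axis, percent of prokaryote counts, stacked bars from 0), one bar per day 28 stool library (x axis), PET libraries left of control libraries, with all other families in grey. The arms overlap, as in Lachnospiraceae with 20.6% to 33.99% in PET and 20.7% to 31.8% in control libraries.

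Among the other families with a low unadjusted p, 3 were rare and turned on control library 1. Burkholderiaceae averaged 0.00499% ± 0.00547 in PET and 0.169% ± 0.397 in control libraries, where library 1 held 0.980%. Its log2 fold change was -4.46 ± 1.81 (SE, adjusted p = 0.42) with all libraries and -0.37 without that one (unadjusted p = 0.762). Microbacteriaceae, here the soil genus Leifsonia, had a log2 fold change of -5.60 ± 2.33 (adjusted p = 0.42) and of -1.48 without control library 1 (unadjusted p = 0.406). Unclassified Rhodospirillales averaged 0.0235% ± 0.00702 in PET and 0.118% ± 0.172 in control libraries, with a control mean of 0.0483% without library 1. The log2 fold change was -1.80 ± 0.74 (adjusted p = 0.42), and -0.95 without that library (unadjusted p = 0.066). Without control library 1, 0 families had an unadjusted p under 0.05, and leaving out another library gave 2 to 8.

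Mycoplasmataceae, bacteria without a cell wall that are here the genus Mycoplasma, went the other way. Mycoplasma held 0.377%, 0, 0.00353%, 0.301%, 0 and 0.425% in the PET libraries, against 0.00415%, 0, 0, 0, 0 and 0.0262% in the control libraries. It was above 0.3% in 3 PET libraries and above 0.03% in no control library, and was not detected in 2 PET and 4 control libraries. The family's log2 fold change was 5.63 ± 2.46 (SE, adjusted p = 0.42), and 5.06 without control library 1 (unadjusted p = 0.0895).

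Of 36 orders, edgeR called 0 and gave 5 (13.9%) an unadjusted p under 0.05, of which 1 (2.78%) was higher and 4 (11.1%) were lower in PET. Among those 4, Rhodospirillales, Micrococcales and Sphingomonadales leaned on control library 1, and the unadjusted count fell to 1 order without it. The order that stayed below 0.05 was Erysipelotrichales, an order of Firmicutes found in the rodent gut. Erysipelotrichales held 0.143%, 0.0191%, 0.0198%, 0.0327%, 0.188% and 0.0439% in the PET libraries and 0.588%, 0.288%, 0.0873%, 0.301%, 0.240% and 0.194% in the control libraries. All but 1 of the control libraries lay above every PET library. The log2 fold change was -1.59 ± 0.69 (SE, adjusted p = 0.339), and -1.56 without control library 1 (unadjusted p = 0.0439). Its unadjusted p was 0.0792, 0.0701, 0.0694 and 0.0541 without PET library 3, 4 or 6 or control library 2. Without PET library 6, 0 orders had an unadjusted p under 0.05, and leaving out 1 library gave 0 to 6.

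Of the orders of at least 1% mean share, Bacteroidales averaged 45.4% ± 5.51 in PET and 43.6% ± 2.78 in control libraries (adjusted p = 0.467). Oscillospirales averaged 6.45% ± 1.81 in PET and 5.79% ± 2.33 in control libraries (adjusted p = 0.582). Campylobacterales averaged 4.47% ± 1.67 in PET and 5.4% ± 1.8 in control libraries (adjusted p = 0.91). The orders Lactobacillales, Lachnospirales, UCG-014 and vadinBB60 group had adjusted p values of 0.464, 0.467, 0.82 and 0.91.

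The ratio of Lactobacillales to Erysipelotrichales set a common order against a rare one. It was 32.6, 526, 300.9, 157, 49.9 and 79.4 in the PET libraries, against 6.28, 25.5, 77.1, 12.7, 16.96 and 19.1 in the control libraries. Only control library 3 reached into the PET range. The difference of mean log2 ratios was 2.66, with an unadjusted exact permutation p of 0.00866 over all arrangements and an adjusted p of 0.121 over the 14 ratios examined, so the difference did not pass the correction. Leaving out 1 library at a time kept the difference between 2.24 and 3.06 and the adjusted p at 0.0606 or above. Without control library 1 the difference was 2.34 (exact p = 0.0195, adjusted p = 0.273). For the other 13 ratios the lowest exact p was 0.16 and the lowest adjusted p 0.779. Firmicutes over Bacteroidota was 1.08 ± 0.309 in PET and 1.10 ± 0.0958 in control libraries (SD, n = 6 each). Lachnospiraceae over Muribaculaceae was 2.22 ± 1.07 in PET and 2.36 ± 0.953 in control libraries. Prevotellaceae over Bacteroidaceae was 0.431 ± 0.260 in PET and 0.873 ± 0.565 in control libraries (exact p = 0.16).

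**Figure D2:**
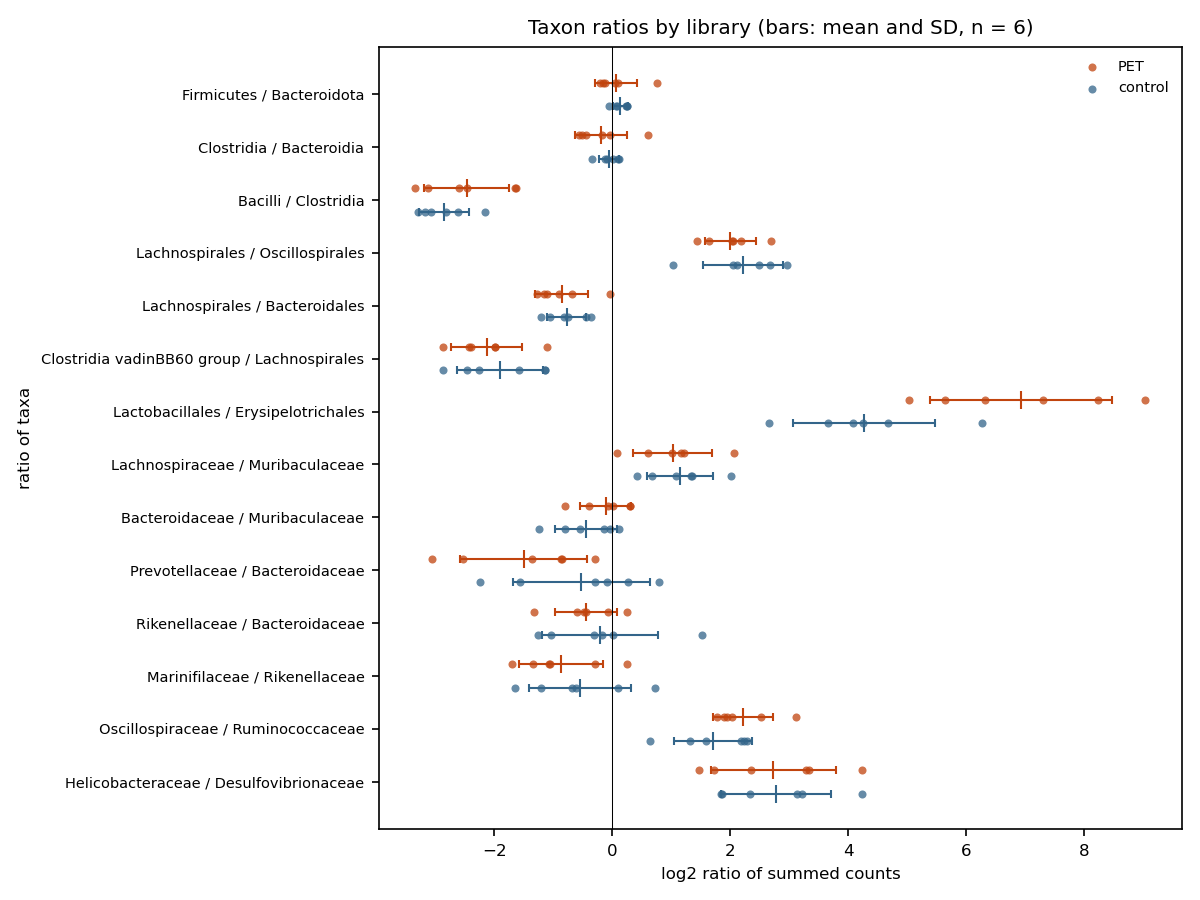
The 14 ratios of phyla, classes, orders and families, as the log2 ratio of summed counts in each library (x axis), with PET points above control points in each row and bars at the mean and SD of 6 libraries. Lactobacillales over Erysipelotrichales is the row in which the arm means lie farthest apart, at a difference of 2.66 on the log2 scale, and the arms overlap in all 14 rows.

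Of the genera tested, 0 passed the adjusted threshold in edgeR. An unadjusted p under 0.05 was reached by 9 (8.26%), 3 higher (2.75%) and 6 lower (5.5%) in PET. The best measured was GCA-900066575, an uncultured genus of Lachnospiraceae. It held 0.294%, 0.637%, 0.239%, 0.435%, 0.2002% and 0.314% in the PET libraries and 0.151%, 0.152%, 0.191%, 0.129%, 0.282% and 0.158% in the control libraries. Of the control libraries, 1 reached into the PET range. The log2 fold change was 0.997 ± 0.42 (SE, adjusted p = 0.46), and 0.88 without control library 1 (unadjusted p = 0.0593). Unclassified Erysipelotrichaceae, part of the order described above, averaged 0.0233% ± 0.0178 in PET and 0.127% ± 0.174 in control libraries. Its log2 fold change was -2.41 ± 0.86 (SE, adjusted p = 0.441), and -1.40 without control library 1 (unadjusted p = 0.0682). Megasphaera, Dialister and the Eubacterium oxidoreducens group were at trace level, with no share above 0.0115% in any library, and each lacked counts in one arm. Leifsonia, Burkholderia-Caballeronia-Paraburkholderia and unclassified Rhodospirillales repeated their families. Without control library 1, 3 genera had an unadjusted p under 0.05.

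Species names come from the deposited lineages and were compared over 200 species labels, where a label without a name joins the genus with the content of its species field. In edgeR 0 labels passed the adjusted threshold, and 12 (6.0%) reached an unadjusted p under 0.05, 6 in each direction (3.0% each). One label (0.5%) had arms that did not overlap. Colidextribacter without a species name, an oscillospiraceous genus, held 0.830%, 0.535%, 0.494%, 0.576%, 0.624% and 0.632% in the PET libraries and 0.433%, 0.368%, 0.462%, 0.327%, 0.425% and 0.408% in the control libraries. Its means were 0.615% ± 0.117 in PET and 0.404% ± 0.0490 in control libraries, with an edgeR log2 fold change of 0.62 ± 0.30 (SE, unadjusted p = 0.0599, adjusted p = 0.735). DESeq2 called it and no other label. Over the whole genus Colidextribacter the arms overlapped, at 1.04% ± 0.238 in PET and 0.837% ± 0.0978 in control libraries (adjusted p = 0.809).

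No named species below passed the adjusted threshold in edgeR. Bacteroides acidifaciens, a common mouse commensal that degrades mucus and plant sugars, averaged 7.499% ± 2.49 in PET and 6.20% ± 3.10 in control libraries (adjusted p = 0.992). Bacteroides caecimuris averaged 1.26% ± 0.732 in PET and 0.771% ± 0.518 in control libraries (adjusted p = 0.943). Lactobacillus reuteri averaged 2.48% ± 1.24 in PET and 1.58% ± 0.545 in control libraries (log2 fold change 0.69 ± 0.42 SE, adjusted p = 0.927). Lactobacillus murinus averaged 0.323% ± 0.259 in PET and 0.380% ± 0.313 in control libraries (adjusted p = 0.992). Of the labels with the lowest unadjusted p, the first 3 were each seen in 3 of the 12 libraries. Trichinella pseudospiralis, the name of a parasitic worm, stands in the species field of 5 features whose lineage is the bacterial Lachnospiraceae NK4A136 group, so it is read here as a label and not as that worm. It held 2.29% in PET library 4, no counts in the other PET libraries and at most 0.00247% in a control library (adjusted p = 0.694).

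At the level of single features the test covered 737 of the 2018, those with at least 10 counts in all and a count in at least 3 libraries. In edgeR 0 of them (0%) passed the adjusted threshold. An unadjusted p under 0.05 was reached by 43 (5.83%), of which 23 (3.12%) were higher and 20 (2.71%) lower in PET. Leaving out 1 library gave 32 to 51 such features, 11 to 31 higher and 12 to 30 lower. The exact permutation test on log2 shares gave 40 with an unadjusted p under 0.05, 32 higher and 8 lower, with a lowest adjusted p of 0.62 and a median log2 difference of 0.27. Log2 shares rest on a small added count, which gives a library without a count a higher value when its depth is lower. PET libraries summed to 2342639 prokaryote counts and control libraries to 2817604. The split of 32 to 8 is therefore not read as more features higher in PET, and the part due to depth was not tested. In edgeR the lowest adjusted p was 0.33. DESeq2 called 21 features (2.85%), 11 higher and 10 lower, and 17 of those 21 had no count in one arm. The edgeR fold changes centred near 0, with 386 positive and 351 negative and a median of 0.06 on the log2 scale. No feature (0%) had arms that did not overlap. In Lachnospiraceae, the family with most features, 254 were tested, 11 were higher and 6 lower at an unadjusted p under 0.05, and the median log2 fold change was 0.08. Muribaculaceae had 62 tested features, of which 2 were higher and 0 lower, and a median of 0.15.

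Of the features found in all 12 libraries, 67 were higher and 46 lower in PET, where all 737 had 386 positive and 351 negative. None had an unadjusted p under 0.05, against 5.83% of all 737. Of the 43 features with such a p, 33 had no count in 1 arm and so could not be in this set. The fitted log2 fold changes ran from -1.47 to 2.36, and 98 lay within 1 log2 unit of no change. In simulated data the test called 38.1% of features changed by 4 log2 units, so these values do not show a lack of change. Bacteroides feature 1, the most abundant feature of all, held 8.79%, 5.58%, 9.83%, 4.37%, 3.34% and 6.05% in the PET libraries and 2.62%, 9.74%, 2.33%, 5.80%, 4.19% and 8.05% in the control libraries. Both arms covered nearly the same range (log2 fold change 0.25 ± 0.55 SE). Lactobacillus feature 1 averaged 3.30% ± 1.44 in PET and 2.42% ± 1.64 in control libraries. Unclassified Lachnospiraceae feature 1 averaged 3.16% ± 2.79 in PET, where library 5 held 0.0187%, and 4.64% ± 1.96 in control libraries. Bacteroides feature 2 averaged 1.95% ± 1.45 in PET and 1.77% ± 1.58 in control libraries. Odoribacter feature 1 averaged 1.72% ± 1.498 in PET and 2.72% ± 2.81 in control libraries. Prevotellaceae UCG-001 feature 1, found in 11 of the 12 libraries and so outside this set, varied by library in both arms, with 0.00490% and 0.00415% in 2 PET libraries, 0 in 1 control library and 1.79% or more in the other 9.

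The lowest p among those features belonged to unclassified Muribaculaceae feature 21, which held 0.628%, 0.167%, 0.211%, 0.0345%, 0.735% and 0.0215% in the PET libraries and 0.0923%, 0.0907%, 0.0165%, 0.0204%, 0.0159% and 0.129% in the control libraries. Of the PET libraries, 4 lay above every control library and 2 lay among them. The log2 fold change was 2.16 ± 1.07 (SE, unadjusted p = 0.0624, adjusted p = 0.999). Unclassified Muribaculaceae feature 32 held 0.311%, 0.0776%, 0.113%, 0.0139%, 0.339% and 0.00736% in the same PET libraries and 0.0402%, 0.0289%, 0.0053%, 0.00448%, 0.00493% and 0.0694% in the control libraries. It was high in the libraries where feature 21 was high, at a lower level in each, and had the highest log2 fold change of these features at 2.36 ± 1.21 (SE, unadjusted p = 0.0727).

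**Figure D3:**
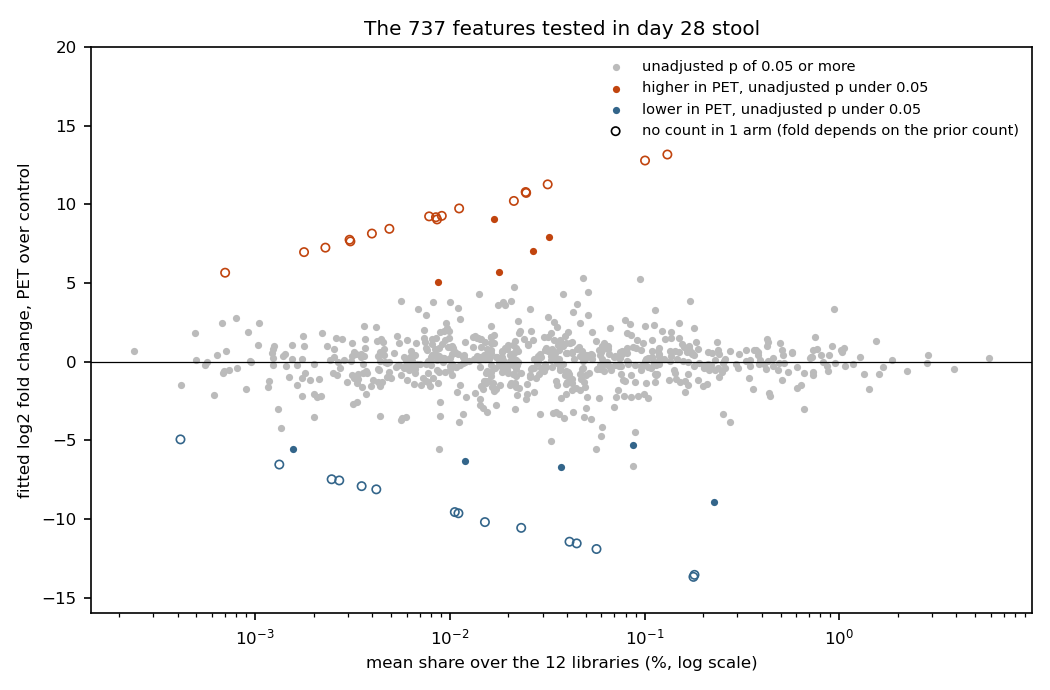
The 737 tested features by mean share over the 12 libraries (x axis, percent, log scale) and fitted log2 fold change of PET over control (y axis). Orange marks the 23 higher and blue the 20 lower features with an unadjusted p under 0.05, grey the others, and open circles the features without a count in 1 arm, whose fitted fold depends on the prior count.

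Features detected in one arm only made up most of the low p values. Of 738 features seen in at least 3 libraries, 18 (2.44%) were seen in PET libraries only and 15 (2.03%) in control libraries only. All 33 were among the 43 with an unadjusted p under 0.05, and the filter of 3 libraries admits such a feature only when its own arm supplies them. The other 10, with counts in both arms, were 5 higher and 5 lower in PET. Asking for 4 libraries left 2 PET-only and 7 control-only features, and asking for 5 left 0 and 2. By order, 10 PET-only and 6 control-only features were Lachnospirales, which is 55.6% and 40% of them against 34.5% of the tested features. The vadinBB60 group had 5 and 4, which is 27.8% and 26.7% against 10.6% of the tested features. No test was made of these shares. Each feature's absence is bounded by depth, since 0 counts over an arm allow a pooled share of up to 3 counts, which is 0.000128% over the PET arm and 0.000106% over the control arm. Folds against an arm at 0 are lower bounds from these pooled floors and cover counting error in the empty arm only.

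**Figure D4:**
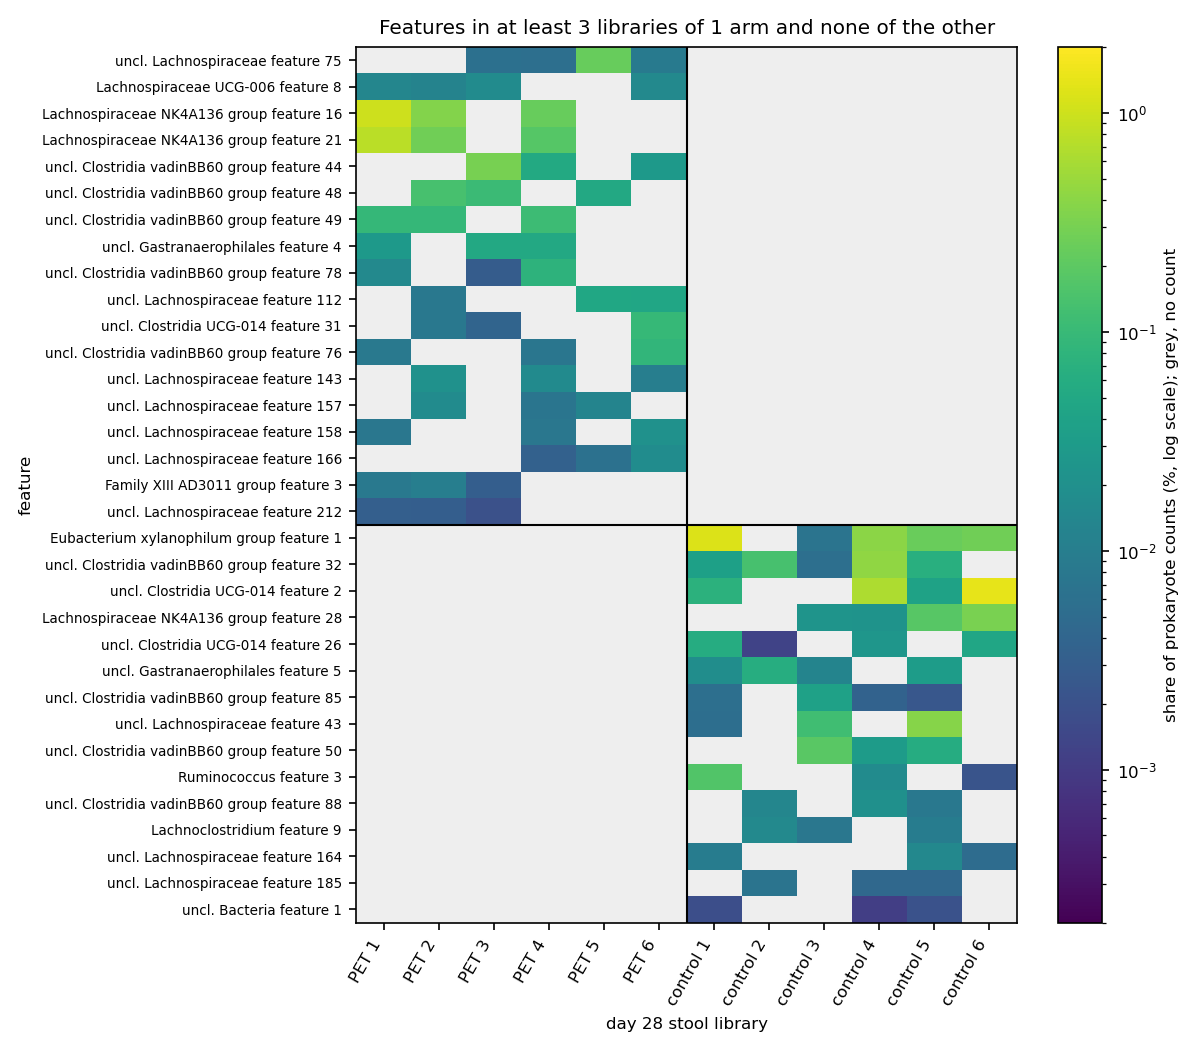
The 18 features seen in PET libraries only (upper block) and the 15 seen in control libraries only (lower block), each in at least 3 libraries, with the share in each day 28 stool library as colour (percent, log scale) and grey for no count. No feature fills all 6 libraries of its arm, and 2 control features reach 5.

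The feature with the lowest p was Eubacterium xylanophilum group feature 1, a member of Lachnospiraceae whose group is named for a xylan degrader. It had 0 counts in all 6 PET libraries, against 1.22%, 0, 0.00701%, 0.4005%, 0.244% and 0.270% in the control libraries. It was present in 5 of 6 control libraries and at least 3082-fold lower in PET (unadjusted p = 0.000859, adjusted p = 0.33). As it was seen in 1 arm only, its low p is no evidence of a difference. Control library 1 held 65.9% of its counts, and without that library the bound was 1336-fold. The genus label as a whole was not lost, since its other features summed to 0.436% ± 0.188 in PET and 0.388% ± 0.326 in control libraries (SD, n = 6 each). In week 1 stool the feature was found in 1 of 6 PET libraries, at 0.0226%, and in 3 of 6 control libraries, at up to 0.408%. In colon tissue at day 28 it was found in 0 of 6 PET and 5 of 6 control libraries, there at up to 0.798%. No label says which colon and stool libraries came from the same mouse. The study had 12 mice, so colon and week 1 values, here and below, are no independent second observation.

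The other control-only features named here were found in 4 or 5 control libraries. Unclassified Clostridia UCG-014 feature 2 had 0 counts in PET libraries and 0.0741%, 0, 0, 0.638%, 0.0403% and 1.41% in control libraries, at least 2232-fold lower in PET (unadjusted p = 0.00294, adjusted p = 0.33), and 1088-fold without control library 6. It was found in 1 of 6 week 1 control libraries and in 0 of 12 colon libraries. The vadinBB60 group feature 32 had 0 counts in PET libraries and 0.0372%, 0.139%, 0.00568%, 0.430%, 0.0679% and 0 in control libraries, at least 867-fold lower in PET (adjusted p = 0.33), and 398-fold without control library 4. At week 1 it was already confined to 3 of 6 control libraries, with 0 of 6 PET libraries. Lachnospiraceae NK4A136 group feature 28 was at least 566-fold lower in PET, 327-fold without control library 6, and held 0.0226% to 0.308% in 4 control libraries. At week 1 it was seen in 2 PET libraries, at up to 0.238%, and in 1 control library. Unclassified Gastranaerophilales feature 5, of a non-photosynthetic lineage of Cyanobacteria found in guts, was at least 173-fold lower in PET, 108.8-fold without control library 2, and was seen in 4 control libraries. Clostridia UCG-014 feature 26 was at least 174-fold lower in PET, 95.5-fold without control library 1, and was also seen in 4 control libraries. The vadinBB60 group feature 5 had counts in both arms, with 0.00443% in 1 PET library, 0.00467%, 1.05%, 1.30% and 0.363% in 4 control libraries and 0 in the other 7 (unadjusted p = 0.00899, adjusted p = 0.33).

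On the PET side, Lachnospiraceae NK4A136 group feature 16 held 0.976%, 0.361%, 0, 0.235%, 0 and 0 in the PET libraries and 0 counts in all 6 control libraries, at least 1928-fold higher in PET (unadjusted p = 0.00543, adjusted p = 0.33), and 1083-fold without PET library 1. Lachnospiraceae NK4A136 group feature 21 was found in the same 3 PET libraries, at 0.760%, 0.272% and 0.175%, and was at least 1474-fold higher in PET, or 812-fold without PET library 1. The counts of feature 16 over feature 21 were 2392 over 1862, 1357 over 1024 and 1061 over 790, ratios of 1.28, 1.33 and 1.34. The pair thus kept nearly one ratio across the 3 libraries. Whether both sequences come from 1 genome was not tested. Lachnospiraceae UCG-006 feature 8 was the steadiest, at 0.0139%, 0.0122%, 0.0173% and 0.0153% in 4 PET libraries and 0 counts in the other 2, at least 87.4-fold higher in PET (adjusted p = 0.33). At week 1 it was in 2 PET and 2 control libraries. Unclassified Lachnospiraceae feature 75 was also in 4 PET libraries, with 0.235% in library 5 and at most 0.00859% in the other 3, at least 444-fold higher in PET. PET library 5 held 92.3% of its counts, and without that library the bound was 41.8-fold. The vadinBB60 group features 44, 48 and 49 were each in 3 PET libraries and at least 746-fold, 515-fold and 429-fold higher in PET. Without PET library 3 the bound of feature 44 was 172-fold, and without PET library 4 that of feature 49 was 286-fold. All 3 had counts in week 1 control libraries.

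Both Muribaculaceae features with a low p were detected in both arms. Unclassified Muribaculaceae feature 53 held 0.000816%, 0.162%, 0.00707%, 0, 0.00207% and 0.0304% in the PET libraries, against 0.000189% in 1 control library and 0 in the other 5 (log2 fold change 9.08 ± 2.33 SE, adjusted p = 0.33). At week 1 it was in 6 of 6 PET libraries, at up to 0.111%, and in 3 of 6 control libraries, at up to 0.147%. Unclassified Muribaculaceae feature 45 held 0.000408%, 0.0290%, 0.313%, 0.0429%, 0.00023% and 0.000307% in the PET libraries and at most 0.000673% in the control libraries (log2 fold change 7.91 ± 2.35 SE, adjusted p = 0.33). The 3 lowest PET libraries lay within the control range.

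Within Helicobacter, features with different species labels were high in different libraries. The genus held 4.47% ± 1.67 in PET and 5.40% ± 1.80 in control libraries (SD, n = 6 each). Helicobacter feature 2, labelled Helicobacter ganmani, held 2.79%, 0.0952%, 5.52%, 0, 0 and 4.42% in the PET libraries, against 0 in 5 control libraries and 5.66% in control library 6. Helicobacter feature 3, labelled Helicobacter typhlonius, held 0.00367%, 0.453%, 0, 1.28%, 2.57% and 0 in the PET libraries and 2.60%, 1.10%, 3.17%, 1.87%, 4.01% and 0 in the control libraries. In all 4 libraries with over 2% of feature 2, 3 PET and 1 control, feature 3 was at or below 0.00367%. Helicobacter feature 1, labelled Helicobacter apodemus, held 0.0175% to 2.84% in PET and 1.06% to 3.09% in control libraries. Helicobacter mastomyrinus averaged 0.349% ± 0.151 in PET and 0.319% ± 0.135 in control libraries. None of the 3 features passed the test (edgeR, unadjusted p = 0.653 for feature 2, 0.402 for feature 3 and 0.354 for feature 1). Feature 2 rested on control library 6 in the control arm: without it no control library held a count, and the unadjusted p was 0.00305 (adjusted p = 0.344). Dropping that library itself made it a feature seen in 1 arm only. All 33 tested features of that kind in the full fit had an unadjusted p under 0.05, so this p is no evidence of a difference. At week 1, feature 2 was in 5 of 6 PET libraries, at up to 5.41%, and in 0 of 6 control libraries, and in colon tissue at day 28 it was in 2 of 6 PET and 0 of 6 control libraries. The classifier confidence of its species label was 0.727.

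**Figure D5:**
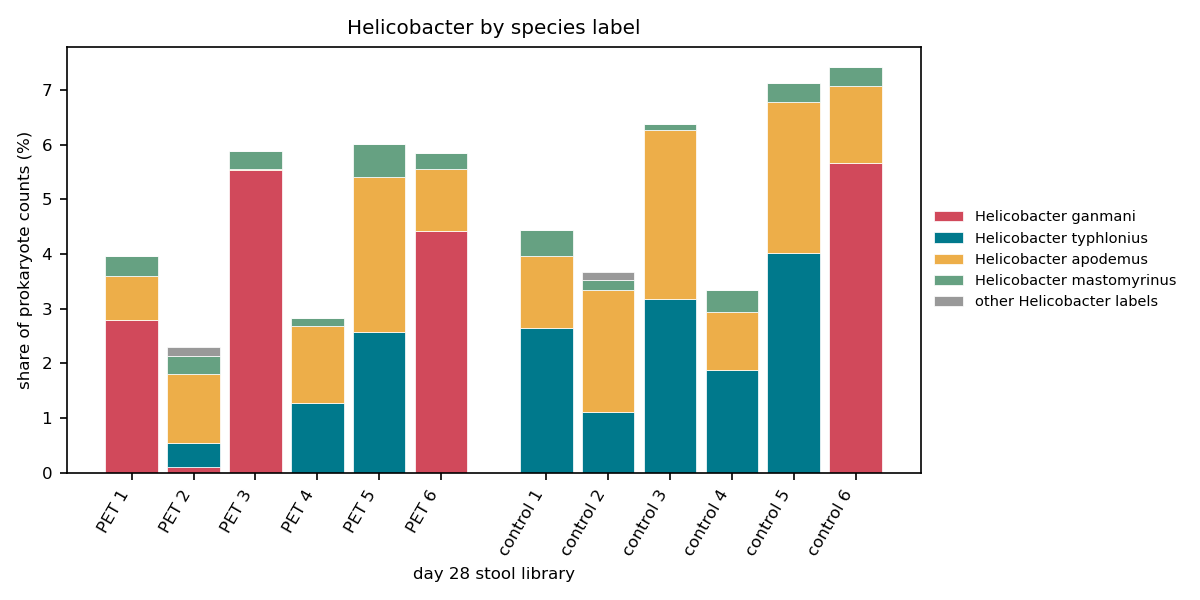
Share of each Helicobacter species label per library (percent of prokaryote counts, stacked bars from 0), PET libraries left of control libraries. Helicobacter ganmani fills PET libraries 1, 3 and 6 and control library 6, and Helicobacter typhlonius is near 0 in these 4.

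Composition within a genus was tested on the shares of features within the genus. The 12 genera tested had at least 1% mean share, at least 5 features and at least 50 counts in every library. In no genus did the test separate the arms (exact permutation test of distances over all splits, lowest adjusted p = 0.506). The highest R2 values were 0.150 in Helicobacter (exact p = 0.139) and 0.128 in the Lachnospiraceae NK4A136 group (exact p = 0.0844). The Helicobacter R2 was 0.314 without control library 6, 0.234 and 0.227 without PET library 4 or 5, and 0.0903 without PET library 3, with an adjusted p of 0.338 or above when any 1 library was left out. Features turned over between libraries to very different degrees by genus. The mean Bray-Curtis distance over all pairs of libraries was 0.268 within Lactobacillus and 0.272 within Bacteroides, against 0.754 within the NK4A136 group and 0.727 within Clostridia UCG-014. The leading feature of unclassified Lachnospiraceae made up 22.2% ± 13.4 of its genus in PET and 34.6% ± 6.71 in control libraries (exact permutation test, p = 0.0671, adjusted p = 0.805 over 12 genera). Bacteroides feature 1 made up 54.3% ± 14.8 of its genus in PET libraries.

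Rare features were compared as a class by their mean share over the 12 libraries. Features of 1% or more numbered 17 and summed to 33.04% ± 6.69 in PET and 34.5% ± 3.34 in control libraries. The 166 features of 0.1% to under 1% summed to 51.1% ± 5.58 in PET and 48.6% ± 5.70 in control libraries, and the 413 features of 0.01% to under 0.1% to 13.98% ± 1.58 in PET and 14.9% ± 4.35 in control libraries. The 1422 features under 0.01% summed to 1.86% ± 0.339 in PET and 1.96% ± 1.19 in control libraries. At one depth of 245010 counts, 185 ± 48.8 of those rarest features were expected in a PET library and 206 ± 134.1 in a control library. Control library 1 held 479 of them, and the other control libraries 140 to 171. Over the 8 measures, sums and numbers, the exact permutation test gave an adjusted p of 0.961 in every case.

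The lists of functional groups had 0 features past the adjusted threshold. Of 92 tested features in genera of butyrate producers, 2 were higher and 2 lower in PET at an unadjusted p under 0.05, where all 737 features had 3.12% higher and 2.71% lower, 0 passed the adjusted threshold, and the median log2 fold change was -0.15 against 0.06 over all 737. These genera summed to 17.1% ± 2.72 in PET and 17.2% ± 5.79 in control libraries. Within them, Roseburia averaged 0.457% ± 0.336 in PET and 0.807% ± 0.869 in control libraries, and Butyricicoccus 0.913% ± 0.404 in PET and 0.757% ± 0.2998 in control libraries. Bacteroidota that make acetate and propionate had 39 tested features, 0 with an unadjusted p under 0.05 and a median of 0.13, and summed to 27.3% ± 3.52 in PET and 25.5% ± 2.39 in control libraries. Lactic acid bacteria and bifidobacteria had 16 tested features, 0 with an unadjusted p under 0.05 and a median of 0.43. Of the 16, 11 were positive and 5 negative, where all 737 had 386 positive and 351 negative. The genera of this list summed to 6.48% ± 2.68 in PET and 4.90% ± 1.68 in control libraries.

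The mucus-associated genera had 8 tested features, 0 with an unadjusted p under 0.05 and a median log2 fold change of -0.35. Over all 737 tested features these values were 5.83% and 0.06. In lists this short, 0 does not show a lack of change. Mucispirillum, which lives in the mucus of the rodent colon, averaged 0.462% ± 0.255 in PET and 0.285% ± 0.263 in control libraries. Akkermansia, a mucin degrader, stayed at or below 0.00240% in PET and 0.0176% in control libraries, or 0.00234% in the control libraries without library 1. Desulfovibrio and Bilophila, which reduce sulfate or sulfite, had 4 tested features with a median of 0.33 and summed to 0.0892% ± 0.0587 in PET and 0.0688% ± 0.0692 in control libraries, and 0 of the 4 had an unadjusted p under 0.05. This list leaves out unclassified Desulfovibrionaceae, of a family of sulfate reducers. Unclassified Desulfovibrionaceae feature 1 alone held up to 1.07% in PET and 1.13% in control libraries, and 0 in PET library 6 and control library 6. Enterobacteria had 2 tested features, 0 with an unadjusted p under 0.05 and a median of -0.27, and stayed at or below 0.00930% in PET and 0.0311% in control libraries. Without control library 1 the highest control value was 0.00947%. Of 7 genera with a described enzyme that cuts PET, 2 were detected, Pseudomonas and Bacillus, in 2 PET libraries at up to 0.00552% and in control library 1 alone of the controls at 0.00249%. None of their features passed the filter for testing. The skin genera reached at most 0.00372% in a PET library and 0.00199% in control library 1, the only control library with a count of them. The reagent list had 3 tested features, 0 higher and 1 lower in PET, which rest on control library 1 as described above.

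The exposure effect at day 28 was also set against that at week 1 in 1 fit of the 24 stool libraries of both times. The study had 12 mice, so some mice must have given more than 1 of these 24 libraries. The fit had no term for the mouse and took all 24 as independent. Its p-values therefore do not account for repeated sampling of a mouse. For a difference of the effects, 0 of 964 features passed the adjusted threshold in edgeR. An unadjusted p under 0.05 was reached by 152 (15.8%), of which 37 had a higher effect at day 28 and the others a lower one. Without control library 1 of day 28 the numbers were 46 higher and 56 lower. The lowest adjusted p was 0.123. Helicobacter feature 2 was among those at that value, with a fitted difference of -15.01 on the log2 scale, and Lachnospiraceae NK4A136 group feature 28 was another, at -15.31. Both estimates rest on groups of libraries with no count. DESeq2 called 84 features, 26 with a higher and 58 with a lower effect at day 28.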

How the data were processed

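Stool DNA was isolated with the DNeasy PowerLyzer PowerSoil kit, and V3 and V4 amplicons were read from both ends, per the labels' protocols. The authors deposited a table of read counts per feature with no normalization, per the file headers, and a taxonomy table whose classifier confidence is a fraction (deposited values from 0.332 to 1). Per the submitters' processing notes, cutadapt, Bowtie2 and the mouse build GRCm39 were among the tools and builds. The denoiser and the classifier with its database were not given in the sources used here.

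Features without a taxonomy line (619 of 8574 in the series) and organelle or eukaryote features were left out. Counts of features, species labels, genera, families and orders with at least 10 counts in all and a count in 3 of the 12 libraries were tested with edgeR 4.0.16 (TMM, legacy quasi-likelihood F test, Benjamini-Hochberg, threshold 0.05), R 4.3.3. DESeq2 1.42.0 and limma 3.58.1 were alternatives. Ratios used log2 after adding 0.5 counts. Single values were compared by exact two-sided permutation over all arrangements of the libraries and distances by exact PERMANOVA over all splits. The code was tested on simulated data. There the feature test called 38.1% of 97 features changed by 4 log2 units and 67.6% of 102 changed by 6. It also called 7 of 442 unchanged features, whose median log2 fold change was -0.42. Changed features were drawn from those seen in at least 6 libraries. A lack of calls therefore does not show a lack of change. Reads carried no molecular identifiers that would tell PCR copies apart, and floors cover counting error only.

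Named features are the 10 most abundant, the 8 higher and 8 lower with the lowest p, up to 6 per direction seen in one arm only and the leading feature of each genus tested. Named taxa are genera, families and orders with an unadjusted p under 0.05, families and orders of 1% or more, species labels with the lowest p, all ratios and all lists. Helicobacter and Colidextribacter labels, common named species and the Muribaculaceae pair were chosen after their values were seen. Members and lists were chosen with earlier results of these data known.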

Additional observations from a re-analysis of the deposited data

Results flagged for a closer look

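Single libraries lay far from the rest of their arm in 65 of 234 sets of 6 values by Dixon's test of the gap to the nearest library, at its 95% critical value. Chance gives about 1 in 20 for even scatter, many measures are sums of each other, and features chosen for a low p are often carried by 1 library. Control library 1 accounted for 22 of the 65 and control library 6 for 13. No cause was tested for any of them.

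Control library 1 held 882 features, 479 expected features of under 0.01% and a summed share of 4.35% for them. It stood highest for Burkholderia-Caballeronia-Paraburkholderia (0.980%, also as family and species label), Leifsonia (0.137%, also as Microbacteriaceae and Micrococcales), Sphingomonadales (0.182%), Rhodospirillales at each level (0.468%), unclassified Erysipelotrichaceae (0.474%, of which 0.346% under the unidentified species label), Dialister (0.0115%), Alistipes without a species name (0.329%) and Eubacterium xylanophilum group feature 1 (1.22%). It was the sole control library with the unidentified NK4A136 group species label (0.00349%), Monoglobus without a species name (0.00116%) and uncultured Ruminococcus (0.000498%), and the sole one with 0 counts of NK4A136 group feature 1, which the others held at 1.01% or more.

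Control library 6 was alone among controls with Helicobacter feature 2 (5.66%). It was highest for unclassified Oscillospiraceae feature 1 (1.39% of the library and 32.03% of its genus), Oscillospiraceae (6.41%), Oscillospirales (10.3%), Clostridia UCG-014 as family and order (5.54%), Mycoplasma at each level (0.0262%), the label Trichinella pseudospiralis (0.00247%) and Helicobacteraceae over Desulfovibrionaceae (18.8). The leading feature of Prevotellaceae UCG-001 was at 0% of its genus there. Control library 3 was highest for Lactobacillales over Erysipelotrichales (77.1), Rikenellaceae over Bacteroidaceae (2.88), Rikenellaceae (11.4%) and Muribaculaceae feature 53 (0.000189%). Control library 4 was highest for vadinBB60 group feature 32 (0.430%), and its leading Lactobacillus feature made up 1.52% of the genus against 40.7% to 61.2% in the other controls. Control library 2 was highest for the Eubacterium oxidoreducens group as genus and species label (0.00319%) and control library 5 for unclassified Lachnospiraceae feature 43 (0.371%).

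Among PET libraries, library 4 was highest for Firmicutes over Bacteroidota (1.69) and Clostridia over Bacteroidia (1.52), and was the sole one with the label Trichinella pseudospiralis (2.29%) and with vadinBB60 group feature 5 (0.00443%). PET library 3 was highest for the vadinBB60 group over Lachnospirales (0.463), Muribaculaceae feature 45 (0.313%) and vadinBB60 group feature 44 (0.299%), and was the sole PET library with Leifsonia at any level (0.00157%). PET library 1 was highest for NK4A136 group features 16 (0.976%) and 21 (0.760%) and Tannerellaceae (5.49%). PET library 2 was highest for Muribaculaceae feature 53 (0.162%), unclassified Oscillospiraceae feature 1 (2.02%) and Burkholderia-Caballeronia-Paraburkholderia at each level (0.0154%). PET library 5 was highest for unclassified Lachnospiraceae feature 75 (0.235%) and the unidentified NK4A136 group species label (0.992%). PET library 6 was the sole PET library with Alistipes without a species name (0.00184%).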

How the results depend on the processing

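The count of 0 features past the adjusted threshold held under all alternatives except 3. DESeq2 called 21 features, no filter on low counts called 31 of 2018 (30 of them absent from one arm and 22 seen in under 3 libraries), and leaving out control library 2 called 1, unclassified Clostridia vadinBB60 group feature 12, so leaving out 1 library gave 0 to 1. At an unadjusted p under 0.05, limma gave 51 features, the fit with library number block as a term 63 and the newer quasi-likelihood fit, chosen after seeing the data, 58, against 43. The exact permutation test gave 40, and no filter 836 (328 higher and 508 lower). A filter of 6 libraries left 459 features with 5 such. DESeq2 called 1 species label and 84 features for the difference between day 28 and week 1. Genera, families and orders had 0 calls under every alternative. Features seen in at least 3 libraries of one arm only numbered 7 to 27 for PET and 8 to 25 for control when 1 library was left out. The PET number was 7 to 11 when PET library 1, 2, 3, 4 or 6 was dropped. Dropping PET library 5 took the control number to 25, and dropping control library 5 took it to 8. Asking for 5 counts gave 21 and 15. The cause of these changes was not tested. Of the named features, 25 fits by DESeq2 or without the filter put a single feature past the threshold. No paired analysis was possible because no label ties PET and control libraries to a shared litter, cage or animal.

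Many values changed sign, most of them near 0 and all of them outside the threshold in both settings. With TMMwsp and with library totals, the log2 fold changes were -0.068 and -0.032 for Lachnospiraceae, -0.36 and -0.32 for Ruminococcaceae, -0.32 and -0.27 for Helicobacteraceae, -0.23 and -0.21 for Marinifilaceae, -0.079 and -0.032 for Lachnospirales, -0.29 and -0.27 for Campylobacterales and -0.34 and -0.28 for the order vadinBB60 group. Both scalings moved the median of all families, by -0.38 and -0.31. With no filter they were -0.053 for Ruminococcaceae, -0.033 for Helicobacteraceae, -0.011 for Marinifilaceae, -0.098 for Campylobacterales, -0.013 for the order vadinBB60 group and -0.019 for Bacteroides feature 2. With a filter of 6 libraries they were -0.24, -0.16 and -0.089 for Ruminococcaceae, Helicobacteraceae and Marinifilaceae, -0.089 for the order vadinBB60 group and -0.057 for Bacteroides feature 2. With organelle and unnamed features kept they were -0.24, -0.16 and -0.084 for those 3 families, -0.018 for Campylobacterales and -0.073 for the order vadinBB60 group. Without the second library number block (PET 6 and control 6) they were -0.021 for Lachnospiraceae, -0.096, -0.16 and -0.12 for those 3 families and -0.15 for the order vadinBB60 group, the community spread difference was 0.032, and the expected numbers of features differed by -0.80 (1% or more) and -1.32 (0.01% to under 0.1%). With the block as a term, Prevotellaceae UCG-001 feature 1 was 0.26 and the family vadinBB60 group 0.039. That family was 0.020 with DESeq2, 0.020 with limma and 0.00075 with the newer fit, and Marinifilaceae was -0.0090 with DESeq2. With limma, Helicobacteraceae was -0.024 and Campylobacterales -0.029. With limma and in the exact permutation test, Parabacteroides feature 1 was 2.03 and 2.30, vadinBB60 group feature 1 -1.06 and -0.79, and UCG-014 feature 1 -2.41 and -2.15. As a log2 ratio to the rest of their genus, the leading features of the vadinBB60 group, Prevotellaceae UCG-001 and UCG-014 differed by -0.51, 0.013 and -0.93. The vadinBB60 group over Lachnospirales was 0.076 at a classifier confidence of at least 0.9, and Helicobacteraceae over Desulfovibrionaceae 0.080 as a difference of medians. Leaving out features of 1 library turned the rarest class to 0.17 points of share and 10.93 features.

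Leaving out 1 library at a time changed the sign of further values. Log2 fold changes ran from -0.43 to 0.21 for Prevotellaceae UCG-001 feature 1, -1.01 to 0.020 for Odoribacter feature 1, -0.35 to 0.52 for Bacteroides feature 2, -0.61 to 0.18 for Parabacteroides feature 1 and -0.96 to 0.014 for NK4A136 group feature 1. For families they ran from -0.00072 to 0.50 (Muribaculaceae), -0.074 to 0.41 (Lachnospiraceae), -0.17 to 0.80 (Tannerellaceae), -0.46 to 0.21 (Ruminococcaceae), -0.26 to 0.19 (Helicobacteraceae), -0.73 to 0.17 (UCG-014), -0.25 to 0.24 (Marinifilaceae) and -0.26 to 0.13 (vadinBB60 group), and for orders from -0.28 to 0.27 (Campylobacterales) and -0.47 to 0.19 (vadinBB60 group). Log2 ratios ran from -0.33 to 0.064 (Lachnospiraceae over Muribaculaceae), -0.45 to 0.11 (Rikenellaceae over Bacteroidaceae) and -0.34 to 0.26 (Helicobacteraceae over Desulfovibrionaceae). Leading features differed by -7.31 to 2.08 percentage points of their genus in Bacteroides, -7.74 to 2.68 in the NK4A136 group, -0.77 to 6.14 in the vadinBB60 group, -3.58 to 9.42 in Lactobacillus, -9.56 to 8.56 in Prevotellaceae UCG-001 and -10.77 to 0.097 in Helicobacter. The community spread differed by -0.032 to 0.024. From the most abundant to the rarest class, summed shares differed by -3.81 to 2.43, -0.64 to 4.84, -1.92 to 0.089 and -0.27 to 0.38 points, and expected numbers of features in the 3 lower classes by -2.39 to 2.25, -1.94 to 12.67 and -37.04 to 31.73. None of these values passed its test.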

Other observations

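Features found in a single library of the 12 numbered 1124, and 3 libraries held many counts in them. PET library 4 held 9.88% of its counts in 100 such features, led by Lachnospiraceae NK4A136 group feature 10 at 4.20%. PET library 5 held 6.92% in 80 features, led by Bacteroides feature 5 at 4.86%. Control library 1 held 12.2% in 361 features, led by NK4A136 group feature 8 at 4.51%, with Alloprevotella at 1.61% and Paraprevotella at 0.949%, both genera of Prevotellaceae. The other 9 libraries held 0.327% to 2.44%. Of the 361 features of control library 1, 196 occurred elsewhere in the series. Week 1 PET stool held 37.4% of the 361 and week 1 control stool 10.2%. For the 100 features of PET library 4 these values were 27% and 11%, and for the 80 of PET library 5 they were 12.5% and 3.75%. At the other sites of day 28, PET and control libraries held 31.9% and 36.8% of the 361 in colon, 36.3% and 39.3% in lung and 32.4% and 32.1% in oral swabs.

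The library numbers in the labels place PET library 6 and control library 6 in a separate run of numbers from the other 10, and what that numbering stands for is not stated. Unclassified Desulfovibrionaceae feature 1, of a family of sulfate reducers, had 0 counts in both and held 0.250% to 1.07% in the other PET libraries and 0.628% to 1.13% in the other control libraries. Escherichia-Shigella feature 1 and unclassified Muribaculaceae feature 40 were also missing from both alone. Such features missing from 1 PET and 1 control library alone numbered 3 here and 4 for PET library 1 with control library 6. Another 6 features occurred in both and in no other library, among them Roseburia feature 12 at 0.026% in PET library 6 and 0.021% in control library 6. Of the 36 pairs, 3 had more such features, up to 9 for PET library 3 with control library 1. The Bray-Curtis distance between PET library 6 and control library 6 was 0.444, the second lowest of 36 pairs of a PET and a control library. With 1 library per arm in that number block, the exposure effect within it has no test.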
